A study of Danio rerio with 4 samples.

Results

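Transcription factor genes that mark regions of the developing brain were followed in ribosome footprint libraries of zebrafish brain. The 43 genes were chosen by name and matched by gene symbol, and each of the 43 was present once among the 25522 genes of the deposited table. They comprise 21 genes of the forebrain, 5 of the midbrain, 8 of the midbrain-hindbrain boundary, 4 of the hindbrain and 5 that are used in several regions. The assignment of each gene to a region came from general knowledge of the field and not from the libraries. Footprints came from Ribo-seq, in which fragments of RNA held by ribosomes survive nuclease digestion and are sequenced. There were 2 footprint libraries, 1 from brain of zebrafish labelled nop2 mutant and 1 from brain of fish labelled nop2 sibling. The sources used here name neither the allele, nor whether siblings were wild type or heterozygous, nor how many fish went into a library. The age is 48 days in the sample titles but 48 hours in the design text of the series. No drug or transgene is named for either group. With 1 library per genotype none of the differences has a replicate check, and p-values were not computed.

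Regional transcription factors divide the neural tube along its length and from dorsal to ventral, and each domain then makes its own kinds of neurons. Signals from local centres, such as the boundary between midbrain and hindbrain, set where each factor is switched on, and many of the factors repress their neighbours to sharpen borders. Most carry a homeodomain, a paired domain or both as the part that binds DNA. Zebrafish often keep a pair of copies of a gene that is single in mammals, so that a family can hold several close paralogs. Nop2 is a nucleolar RNA methyltransferase needed to build the large subunit of the ribosome, and the study asked how its loss bears on neural differentiation.

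The sibling library held 20696345 and the mutant library 18884879 footprint reads after rounding of the authors' expected counts. Reads were compared as CPM, the number of reads on a gene per 1000000 reads of its library, and ratios are the log2 of mutant over sibling CPM. The mutated gene itself, nop2 (ENSDARG00000043304), had 657 footprints in sibling and 41 in mutant brain, a log2 ratio of -3.85 (95% counting interval -4.36 to -3.41). All 16 detected genes of a brain list reached a mean of 1 CPM, among them tubb5 (a tubulin), fabp7a of radial glia and elavl3 of neurons, with a median log2 ratio of -0.16. Of the 16, 11 were lower in the mutant library, past 2-fold for fabp7a (16563 and 4761 reads, -1.67) and for neurod6b of forebrain neurons (808 and 199 reads, -1.89), and the synaptic gene snap25b stood at -0.98. The 16 brain genes summed to 4203 CPM in sibling and 3165 CPM in mutant brain. Markers of other tissues were present as well, and those of skeletal muscle and epidermis summed higher than the brain list in both libraries. Lens markers, at 5673 CPM in sibling and 2538 CPM in mutant, summed higher than the brain list in the sibling library alone. The word brain is used here as in the sample titles. Retina markers summed to 940.5 CPM in sibling and 275 CPM in mutant brain, skeletal muscle markers to 47261 and 15978 CPM, and epidermis markers to 12570 and 21247 CPM. In bulk tissue, fewer cells of a type and less RNA per cell cannot be told apart, and without total RNA a footprint count mixes how much transcript was present with how many ribosomes it carried.

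Most regional factors differed little between the libraries, and a few differed about 2-fold in opposite directions. Of the 43 genes, 42 reached a mean of 1 CPM over both libraries, and the hindbrain gene egr2b did not. Of the 42, 22 were higher and 20 lower in the mutant library, with ratios from -1.06 for pax6b to 1.18 for otx2a. Past 2-fold in either direction were 4 members, against 10.4% of all genes. At least 2-fold higher were 2 genes, otx2a and gsx2, against 4.72% of all 18127 genes that reached the same minimum. With the authors' TPM gsx2 fell short of 2-fold (0.99) and egr2a passed it. At least 2-fold lower were 2 genes, pax6b and gbx2, against 5.7% of all genes. At 1.5-fold, 4 members were higher (background 12.4%) and 5 lower (background 14.5%), and 27% of all genes passed 1.5-fold in either direction. These shares of members are close to those of all genes. The median log2 ratio of the members was 0.01 and that of all genes -0.06. The median size of the ratio, whichever its sign, was 0.29 for the members and 0.33 for all genes. Footprints on the 43 genes together made up 1261 CPM in sibling and 1171 CPM in mutant brain. Intervals printed with ratios are exact Clopper-Pearson intervals that cover counting error only, and without molecular identifiers several reads may stem from a single molecule.

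**Figure D1:**
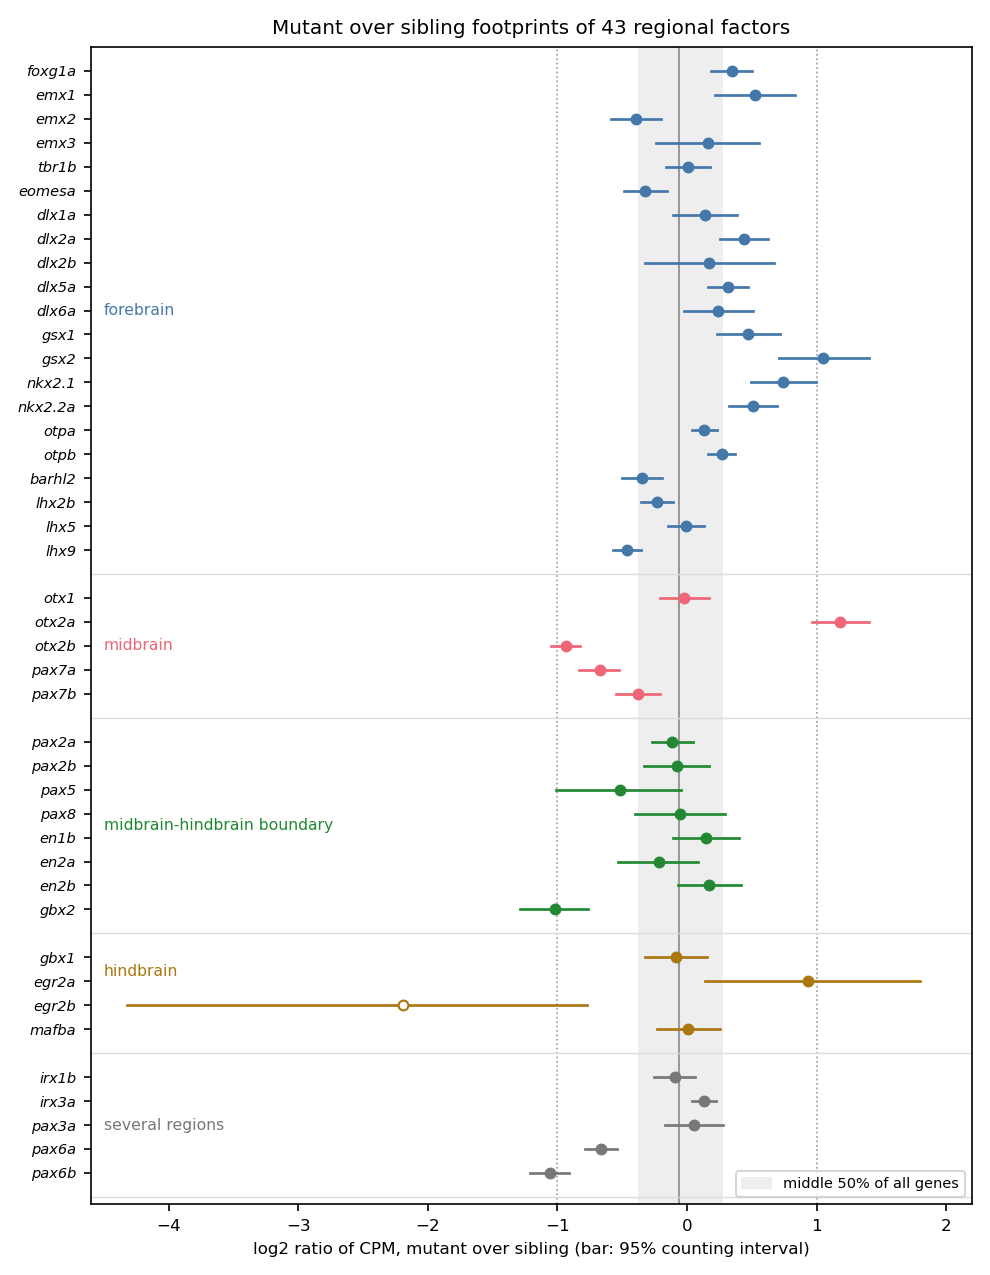
Log2 ratio of CPM, mutant over sibling, for each of the 43 genes, grouped by region, with 95% counting intervals as bars; the open circle is egr2b, which lay under the minimum of 1 CPM. The grey band holds the middle 50% of all genes, its line is their median of -0.06, and dotted lines mark 2-fold. The dlx, gsx and nkx2 genes lie to the right of 0. Left of the band lie emx2, lhx9, otx2b, pax7a, pax5, gbx2, egr2b, pax6a, pax6b and, at its edge, pax7b.

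The level of a gene is given as the deposited TPM, scaled by the authors for both gene length and depth, so that genes can be set side by side. In the sibling library the highest members were otx2b at 100.6 TPM, otpa at 80.3, pax6a at 71.0, otpb at 67.6, lhx9 at 65.1 and irx3a at 59.2. In the mutant library the order changed, with otpa at 84.8 TPM and otpb at 78.4 ahead of irx3a at 62.3 and otx2b at 50.4. The lowest members in the sibling library were egr2b at 0.799 TPM and egr2a at 0.898 TPM, genes known for a brief early phase of hindbrain segmentation. Next came pax5 at 3.63, dlx2b at 3.75 and pax8 at 5.02 TPM. By rank in the sibling library, otx2b stood 1354th and egr2b 18181st among all genes. The hypothalamic otp genes and irx3a thus lay far above the boundary and segment genes in both libraries.

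**Figure D2:**
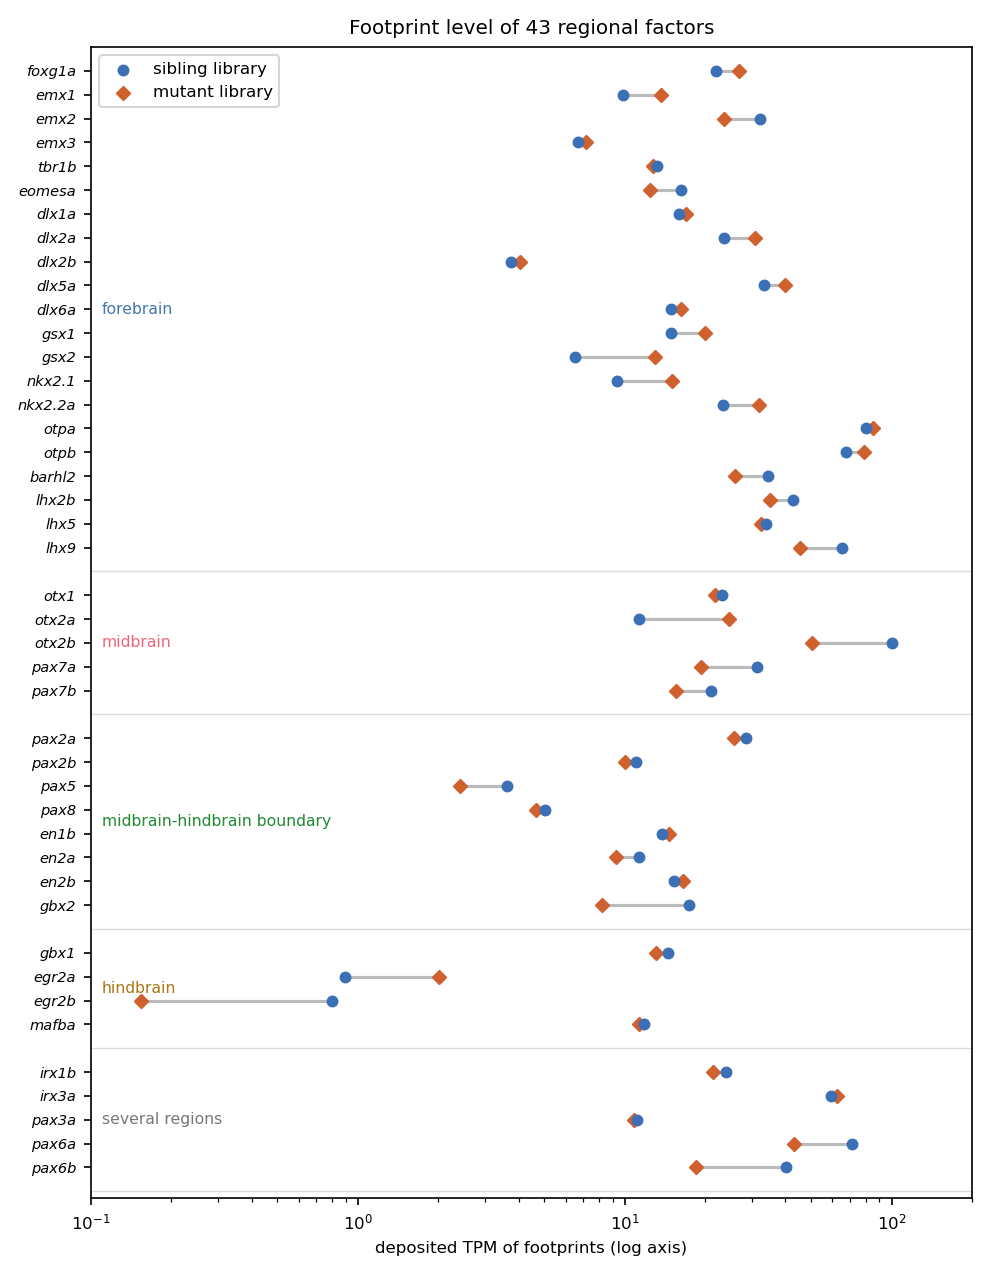
Deposited TPM of footprints (log axis) for each of the 43 genes in the sibling library (circles) and the mutant library (diamonds), 1 library each, joined by a grey line. Levels span from 0.154 TPM for egr2b in the mutant library to 100.6 TPM for otx2b in the sibling library, and the longest lines belong to egr2b, egr2a, otx2a, gbx2, pax6b, gsx2 and otx2b.

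Among factors of the dorsal telencephalon, or pallium, some were higher and some lower in the mutant library, with none past 1.5-fold. Footprints on foxg1a, the forkhead factor of the telencephalon, numbered 615 in sibling and 713 in mutant brain, a log2 ratio of 0.35 (0.19 to 0.50). The emx genes are homeobox genes of the dorsal telencephalon. Of these, emx2 had 539 and 375 reads, a ratio of -0.39 (-0.59 to -0.20), whereas emx1 had 156 and 205 reads, a ratio of 0.53 (0.22 to 0.84). Their paralog emx3 had 106 and 108 reads (0.16, -0.24 to 0.56), an interval that includes 0. The emx1 and emx3 counts were not whole numbers in the deposited table, so their reads were partly divided by estimate. Summed over emx1, emx2 and emx3, the family had 38.7 CPM in sibling and 36.4 CPM in mutant brain, a ratio of -0.09 (-0.24 to 0.06). The T-box gene eomesa, used in pallial and retinal neurons, had 710 and 518 reads (-0.32, -0.49 to -0.16). The other T-box gene, tbr1b, a gene of early glutamatergic neurons, had 592 and 543 reads and a ratio of 0.01 (-0.16 to 0.18). So the forkhead gene and emx1 lay on the higher side, emx2 and eomesa on the lower, and tbr1b near equality.

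The 9 members grouped here as factors of the ventral telencephalon and other ventral domains lay on the higher side in the mutant library. The 9 genes dlx1a, dlx2a, dlx2b, dlx5a, dlx6a, gsx1, gsx2, nkx2.1 and nkx2.2a were all higher, against 44.9% of all genes that were higher by any size, with a median log2 ratio of 0.44. These 9 were set apart within the forebrain group after their values were seen. Their shared direction therefore does not speak for ventral factors in general. Footprints on gsx2, a homeobox gene of ventral telencephalic progenitors, numbered 107 in sibling and 203 in mutant brain, and its CPM went from 5.17 to 10.7. This was 2.07-fold higher in the mutant library, a log2 ratio of 1.05 (0.71 to 1.41). The related gsx1 had 247 and 313 reads (0.47, 0.23 to 0.72). The gsx genes mark dividing progenitors, and both had whole-number counts.

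Reads on nkx2.1, a homeobox gene of the hypothalamus and ventral telencephalon that is also used in the thyroid, numbered 218 in sibling and 333 in mutant brain (0.74, 0.49 to 0.996). Among 4 detected thyroid markers, 2 reached 1 CPM and both were higher, the thyroglobulin gene tg with 128 and 267 reads and hhex with 55 and 80. The list summed to 9.52 CPM in sibling and 18.9 CPM in mutant brain, no member was at 0, and its part in the nkx2.1 result was not tested. The gene nkx2.2a, which responds to Hedgehog signals along the ventral neural tube, had 426 and 554 reads (0.51, 0.33 to 0.70).

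The dlx genes, homeobox genes that drive the program of GABA-releasing forebrain neurons, were higher by less than 1.5-fold each. Footprints on dlx2a numbered 434 in sibling and 537 in mutant brain (0.44, 0.25 to 0.63), and those on dlx5a 636 and 722 (0.31, 0.16 to 0.47). Intervals included 0 for dlx6a (226 and 244 reads, 0.24, -0.02 to 0.51), dlx1a (273 and 275 reads, 0.14, -0.10 to 0.39) and dlx2b (70 and 72 reads, 0.17, -0.32 to 0.67). Summed over the 5 genes, dlx footprints went from 79.2 to 98.0 CPM, a ratio of 0.31 (0.21 to 0.40). In the RefSeq annotation of the assembly GRCz12tu, dlx1a is next to dlx2a and dlx5a next to dlx6a among protein-coding genes. The sums of these neighbours had ratios of 0.33 (0.18 to 0.48) and 0.30 (0.16 to 0.43). The dlx genes are also used in the mesenchyme of the pharyngeal arches. There 11 of 12 markers of cartilage and pharyngeal arch were lower in the mutant library, with a median of -0.54 and a summed level of 2434 CPM in sibling and 1634 CPM in mutant brain, and none at 0. The part of arch tissue in the dlx values was not tested.

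Factors of the hypothalamus, thalamus and other parts of the diencephalon ranged from slightly higher to slightly lower. The homeobox genes otpa and otpb, needed for hypothalamic neuroendocrine and dopaminergic neurons, were among the best covered members. Reads on otpa numbered 1766 in sibling and 1768 in mutant brain (0.13, 0.04 to 0.23), and on otpb 1454 and 1598 (0.27, 0.16 to 0.37). The LIM homeobox gene lhx9, expressed in the thalamus, had 1712 and 1135 reads (-0.46, -0.57 to -0.35). Its relative lhx2b, a gene of forebrain and eye, had 1214 and 945 reads (-0.23, -0.35 to -0.11), and lhx5 had 904 and 822 (-0.00496, -0.14 to 0.13). The homeobox gene barhl2, used in the diencephalon and in retinal neurons, had 841 and 603 reads (-0.35, -0.50 to -0.20). At these read numbers the intervals were narrow, and the otp genes lay above 0 and lhx9, barhl2 and lhx2b below it. The reads on otpa were almost equal in number, so its ratio depends on the scaling of the libraries. It stood at 0.08 with the authors' TPM and at 0.19 with TMM scaling.

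The Otx genes, homeobox genes that define forebrain and midbrain, differed in opposite directions. Footprints on otx2b numbered 1964 in sibling and 936 in mutant brain, and its level went from 100.6 to 50.4 TPM, a log2 ratio of -0.94 (-1.05 to -0.82). Footprints on otx2a went the other way, with expected counts of 256.21 and 531.02 and levels of 11.3 and 24.6 TPM. Its ratio of 1.18 (0.97 to 1.41) was the highest of the members. The third gene, otx1, had 502 and 452 reads (-0.02, -0.21 to 0.17). Per length, otx2b stood 8.92-fold above otx2a in the sibling library and 2.05-fold above it in the mutant library. Of the reads on both genes, otx2a took 11.5% (95% interval 10.2% to 12.9%, exact binomial) in sibling and 36.2% (33.7% to 38.7%) in mutant brain. Summed over otx1, otx2a and otx2b, footprints went from 131.5 to 101.6 CPM, a ratio of -0.37 (-0.46 to -0.29). The counts of otx1 and otx2a were not whole numbers, while those of otx2b were. The share of otx2a therefore includes reads divided by estimate.

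The Otx family of the deposited table also holds crx and otx5, genes of photoreceptors and the pineal organ that are not regional factors. Reads on crx numbered 2915 in sibling and 307 in mutant brain (-3.11), and on otx5 1398 and 313 (-2.03). Both lay on the lower side with otx2b, which is also known in retinal pigment epithelium and in the photoreceptor lineage. The other Otx members, otx1 (-0.02) and otx2a (1.18), are likewise listed for the retina. Of 19 measured retina markers 14 were lower, with a median of -1.84. That list includes crx and otx5 themselves, so it is not separate from them. Of the 20 listed, 1, opn1lw1, had no read in the mutant library. The part of the eye in the otx2b result was not tested.

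**Figure D3:**
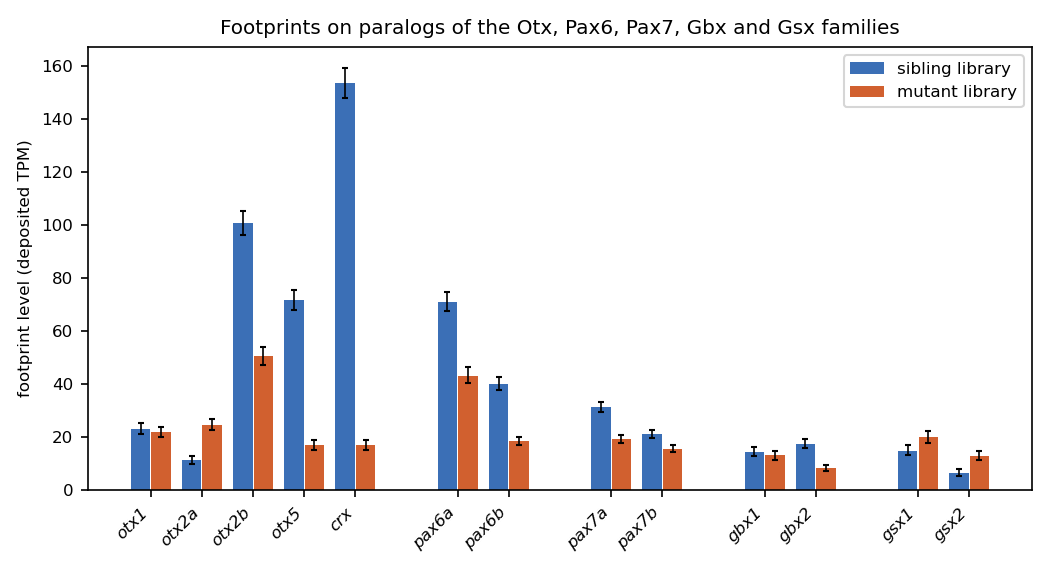
Deposited TPM of footprints on paralogs in the sibling (blue) and mutant (orange) library, 1 library each, with bars from 0 and 95% exact Poisson intervals of the counts scaled to TPM. The pair otx2a and otx2b differs in opposite directions, crx and otx5 are low in the mutant library, both pax6 and both pax7 genes are lower there, and gbx2 is 2.03-fold lower in CPM there while gbx1 is close to equal.

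The other midbrain factors, pax7a and pax7b, were lower in the mutant library. These paired box genes mark the dorsal midbrain, and they are also used in neural crest, pigment cells and muscle precursors. Reads on pax7a numbered 948 in sibling and 542 in mutant brain (-0.67, -0.83 to -0.52), and on pax7b 714 and 502 (-0.38, -0.54 to -0.21). Each count was a fraction, but the pair summed to 1662 and 1044, whole numbers within 0.02, as a division of shared reads within the pair would give. The ratio of the sum was -0.54 (-0.65 to -0.43), and it does not depend on how reads were divided between them. Beside these values, 11 of 12 skeletal muscle markers were lower with a median of -1.38, and 6 of 11 pigment cell markers were higher with a median of 0.02. The pigment cell markers were split, with ratios from -1.51 to 0.45. At least 2-fold lower were 3 of them (background 5.7%), and 0 were at least 2-fold higher (background 4.72%). No marker of either list was at 0, and their part in the pax7 result was not tested.

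At the boundary between midbrain and hindbrain gbx2 and pax5 were lower in the mutant library. The interval of pax5 ended close to 0, and those of the other 6 factors included 0. Footprints on gbx2, a homeobox gene known in mouse for the anterior hindbrain and the thalamus, numbered 401 in sibling and 180 in mutant brain, and its level went from 17.4 to 8.24 TPM. The mutant library was 2.03-fold lower in CPM, a log2 ratio of -1.02 (-1.29 to -0.77). It passed 2-fold narrowly and stood at -0.97 under TMM scaling. Its relative gbx1, grouped with the hindbrain, had 308 and 265 reads (-0.08, -0.33 to 0.16). Of reads on both gbx genes, gbx2 took 56.6% (52.8% to 60.2%) in sibling and 40.4% (35.9% to 45.2%) in mutant brain.

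The engrailed genes, homeobox genes that maintain the boundary, had 730 reads in all in sibling and 697 in mutant brain, a summed ratio of 0.07 (-0.09 to 0.22). One by one, en1b had 256 and 259 reads (0.15), en2a 203 and 159 (-0.22) and en2b 271 and 279 (0.17), each with an interval that includes 0. The paired box genes pax2a, pax2b, pax5 and pax8 start and maintain boundary identity. Reads on pax2a, the first of them to act in zebrafish, numbered 718 and 605 (-0.11, -0.27 to 0.04). Reads on pax2b numbered 286 and 247 (-0.08, -0.33 to 0.17), and on pax8 150 and 132 (-0.05, -0.40 to 0.29). Thinly covered pax5 had 96 and 61 reads (-0.52, -1.01 to -0.04). The 4 genes summed to 1250.01 and 1045 reads, with a ratio of -0.13 (-0.25 to -0.01). The sums were whole within 0.02 although pax2a, pax2b and pax8 were fractions. TMM scaling adds 0.055 to each log2 ratio, more than the distance from 0 of the upper ends for pax5 and for the sum. The genes pax2a and pax8 are also used in the inner ear and the pronephros. Of 9 measured markers of those organs 6 were higher, with a median of 0.18 and sums of 413 CPM in sibling and 342 CPM in mutant brain, none at 0. Their part in the pax2a and pax8 values was not tested.

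Of the 4 hindbrain factors, gbx1 and mafba were close to equal, and egr2a and egr2b were thinly covered. The zinc finger gene egr2b, a marker of alternating hindbrain segments also known as krox20, had 22 reads in sibling and 4 in mutant brain, a ratio of -2.19 (-4.32 to -0.77) under the minimum of 1 CPM. Its paralog egr2a had 21 and 37 reads (0.93, 0.14 to 1.80), so that the pair summed to 43 and 41.02 reads with a ratio of 0.06 (-0.59 to 0.71). The share of egr2b in the pair was 51.2% (35.5% to 66.7%) in sibling and 9.76% (2.72% to 23.1%) in mutant brain. The bZIP gene mafba, known as valentino and needed in the caudal hindbrain segments, had 299 and 275 reads and a ratio of 0.01 (-0.23 to 0.25). At these depths the egr2 ratios rest on few reads, and mafba lay near equality.

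Of the factors used in several regions, both pax6 genes were lower in the mutant library and the rest were near equality. Pax6 is a paired box and homeobox factor of eye, diencephalon and hindbrain. Reads on pax6b numbered 1175 in sibling and 515 in mutant brain, and its level went from 40.2 to 18.4 TPM, a ratio of -1.06 (-1.21 to -0.91), the lowest of the 42. Reads on pax6a numbered 1432 and 824 (-0.66, -0.79 to -0.54). The pair summed to 2607 and 1339 reads, whole numbers although each gene had a fraction, with a ratio of -0.83 (-0.93 to -0.73). Of those reads pax6b took 45.1% (43.1% to 47.0%) in sibling and 38.5% (35.8% to 41.1%) in mutant brain. The dorsal neural tube and neural crest gene pax3a had 344 and 326 reads (0.05, -0.17 to 0.28). The Iroquois gene irx3a, a homeobox gene of midbrain and hindbrain, had expected counts of 1782.54 and 1783.18 (0.13, 0.04 to 0.23), and irx1b had 709 and 606 reads (-0.09, -0.25 to 0.06). The ratio of irx3a depends on the scaling, at 0.07 with the authors' TPM and 0.19 with TMM scaling.

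**Figure D4:**
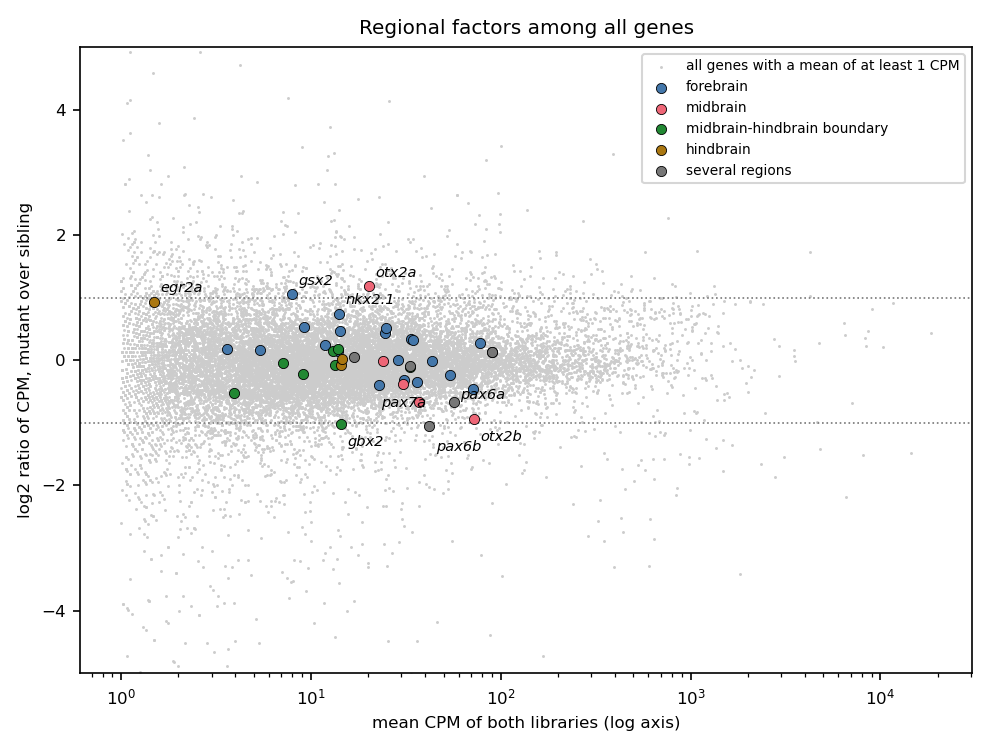
Log2 ratio of mutant over sibling CPM against mean CPM (log axis) for all genes whose mean reached 1 CPM (grey) and the 42 regional factors among them (coloured by region); dotted lines mark 2-fold, and 38 genes lie outside the y axis. The regional factors sit inside the cloud of all genes, with otx2a and gsx2 above the upper line and gbx2 and pax6b just below the lower one.

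By region, the forebrain group lay slightly above and the midbrain group below the median of all genes. Of all genes 44.9% were higher by any size. Of 21 forebrain genes 15 were higher, with a median of 0.17 (range -0.46 to 1.05). These 15 include all 9 dlx, gsx and nkx2 genes, the set picked out after its values were seen. The 6 pallial members had a median of 0.08, with 4 higher. The 6 hypothalamic and diencephalic members had a median of -0.12, with 2 higher. These sub-groups are the rest of the same split of the forebrain group, so they were not set beforehand either. Of 5 midbrain genes 1 was higher, with a median of -0.38 (range -0.94 to 1.18). Of 8 boundary genes 2 were higher, with a median of -0.10 (range -1.02 to 0.17). The 3 measured hindbrain genes had a median of 0.01 (range -0.08 to 0.93), and the 5 genes of several regions a median of -0.09 (range -1.06 to 0.13). Ranges of the groups overlap, no test of a difference between them was made, and moving pax7a and pax7b to the genes of several regions turned the midbrain median to -0.02. Summed footprints went from 640 to 666 CPM for the forebrain, from 212 to 157 CPM for the midbrain and from 115 to 102 CPM for the boundary. Those of the hindbrain went from 31.4 to 30.8 CPM and those of several regions from 263 to 215 CPM.

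By protein family, as annotated in the deposited table, 8 of the 9 members of the PAX family were lower, against 55.1% of all genes lower by any size, with a median of -0.38. The exception was pax3a, and the intervals of pax3a, pax2a, pax2b and pax8 included 0. The 5 further PAX genes of the table are not regional factors of this set, and 4 of them reached 1 CPM, with a median of 0.32. They were pax1a (23 and 35 reads), pax1b (45 and 57), pax3b (46 and 47) and pax9 (111 and 82), each with an interval that includes 0. The 25 Homeobox members had a median of 0.15, with 16 higher. The 185 other Homeobox genes of the table that reached 1 CPM had a median of -0.02, with 88 higher. The 25 include the 9 dlx, gsx and nkx2 genes, all higher and set apart after their values were seen. As annotated, the Homeobox class leaves out the Otx and PAX members. Fractional counts were frequent, in 18 of the 43 genes (41.9%) against 25.7% of all genes.

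The members listed as also used in the retina had a lower median than the other members. The list was drawn from general knowledge, and genes outside it were not shown to be absent from the eye. The 11 members listed for expression in the retina as well as the brain were foxg1a, tbr1b, eomesa, otx1, otx2a, otx2b, barhl2, lhx2b, pax2a, pax6a and pax6b. Of these 8 were lower, against 55.1% of all genes lower by any size, with a median of -0.23 and sums of 484 CPM in sibling and 380.5 CPM in mutant brain. Of the 31 measured others 12 were lower, with a median of 0.13 and sums, egr2b included, of 777 and 790.1 CPM. These 31 include the 9 dlx, gsx and nkx2 genes, all higher and set apart after their values were seen. The contrast between the medians therefore rests in part on that set. Of the 11 retina-listed members, otx2a, with the highest ratio of all members, foxg1a and, near equality, tbr1b (0.01) were higher. Without the retina-listed genes the forebrain median was 0.26, the midbrain median -0.52 over the 2 pax7 genes, the boundary median -0.08, the hindbrain median 0.01 and the median of several regions 0.05. So the forebrain median and that of several regions lay higher without them and the midbrain median lower. Lens markers, 9 measured, were all lower, with a median of -1.28, and crybb2 of that list had no read in the mutant library. The part of eye tissue in these values was not tested.

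**Figure D5:**
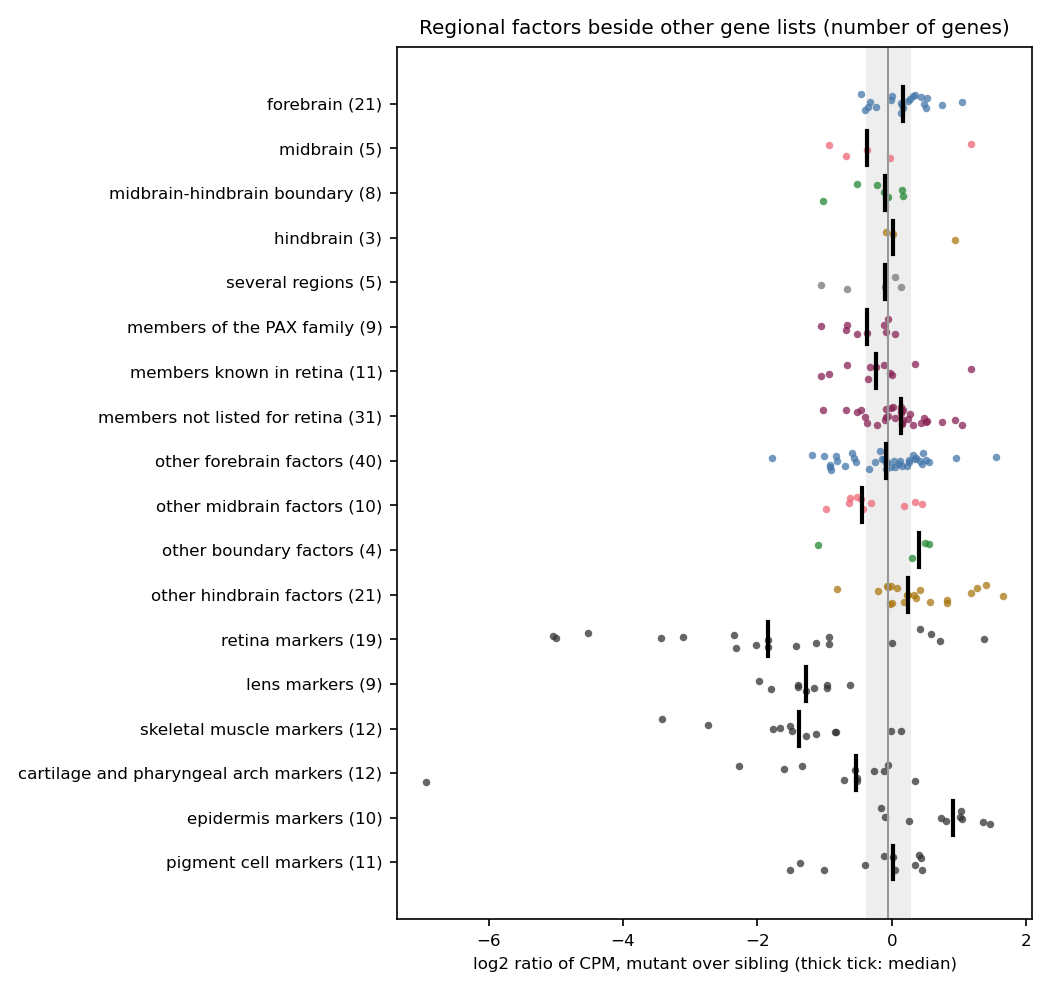
Log2 ratio of CPM, mutant over sibling, of each gene whose mean reached 1 CPM in the region groups, in other groupings of the same members, in lists of other regional factors and in marker lists of other tissues; thick ticks are medians and the grey band holds the middle 50% of all genes. Medians of the region groups lie between -0.38 and 0.17, while those of the retina, lens and skeletal muscle markers lie at -1.84, -1.28 and -1.38.

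Further regional factors outside the 43 were looked up from lists of general knowledge. Of 75 measured genes 39 were higher and 36 lower, 5 past 2-fold on the higher side (background 4.72%) and 4 on the lower (background 5.7%), and the median was 0.03. Among 40 forebrain genes 18 were higher and the median was -0.08. The ventral gene nkx2.2b (34 and 92 reads, 1.56) was more than 2-fold higher. More than 2-fold lower were the eye field and hypothalamic gene rx3 (205 and 54 reads, -1.78), foxg1b (1034 and 412 reads, -1.19) and shox2 (688 and 313 reads, -1.003). The most abundant, nr2f2, a nuclear receptor gene, had 4150 and 2995 reads (-0.34).

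Among 10 further midbrain genes 7 were lower, against 55.1% of all genes lower by any size. Their median was -0.44 with none past 2-fold, and the most abundant was meis2a (5478 and 3726 reads, -0.42). Of 4 measured boundary genes 3 were higher, with a median of 0.40, lmx1bb at 0.31 as the most abundant and sp5a (217 and 92 reads, -1.10) past 2-fold. Among 21 further hindbrain genes 15 were higher, against 44.9% of all genes higher by any size, with a median of 0.24. Past 2-fold were hoxb1b (33 and 96 reads, 1.66), hoxb1a (25 and 52 reads, 1.17) and the rhombic lip genes atoh1b (70 and 170 reads, 1.41) and atoh1a (94 and 208 reads, 1.27). Of all genes 4.72% were at least 2-fold higher. At a minimum of 10 CPM, the further genes of all lists had 0 in place of 5 at least 2-fold higher. On the lower side they had 2 in place of 4. Another rhombic lip gene, atoh1c, lay under the minimum of 1 CPM and was lower, with 32 reads in sibling and 1 in mutant brain (-4.31, -10.2 to -2.29). The most abundant hindbrain gene of the list, zic1, stood at 0.08. So the midbrain medians, -0.38 among the members and -0.44 among the further genes, lay below the median of all genes, -0.06. That of the members was -0.02, above the median of all genes, with pax7a and pax7b moved out. The further forebrain genes had a median of -0.08 beside 0.17 for the forebrain members.

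RNA bisulfite sequencing of the same tissue, which reads unconverted cytosines as 5-methylcytosine, had 1 library per genotype as well. None of the 43 genes was annotated to any of the 617 distinct differential loci (92 genes) or 52 distinct differential regions (51 genes) in the authors' deposited tables. Nor was any of the 85 further regional symbols looked up. The footprint table holds 25522 genes, so lists of 92 and 51 genes would mostly miss any set of 43 or 85. The tables list what passed the authors' threshold, so they hold no value for these genes.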

How the data were processed

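Brain of nop2 mutant zebrafish and siblings was profiled by Ribo-seq, 1 library per genotype. The submitters' processing notes name GRCz11 and, without role or order, the aligners STAR, HISAT2 and Bowtie2, the trimmers fastp and Trimmomatic 0.38, SAMtools and methylKit. The counting program is not named in the sources used here. Per the file headers, the deposited table gives expected counts per gene, not normalized, and TPM, which the authors scaled by length and library. The deposited bisulfite tables list a difference score per locus between conditions that are not tied to a genotype, and were used for gene names alone. No annotation of GRCz11 and no gene sequence was used here.

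Expected counts were rounded to whole numbers and divided by library totals (1 read was worth 0.0483 and 0.0530 CPM). Log2 ratios used a pseudocount of 0.5 counts, and genes whose mean reached 1 CPM entered counts and medians. Intervals are exact Clopper-Pearson, conditional on the sum of both counts, and were tried on simulated Poisson counts. Such counts follow the model behind the interval, so its coverage was fixed beforehand. Fractional and duplicate reads were not simulated. With 1 library per genotype no test was run and "called" means past 2-fold. Alternatives used edgeR 4.0.16 (TMM) and DESeq2 1.42.0 (size factors). Full values were given for members past 2-fold, the most abundant of each region, paralogs and nop2; further lists by counts, their genes past 2-fold and their most abundant gene. The members and lists were chosen with earlier results of these data known.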

Additional observations from a re-analysis of the deposited data

How the results depend on the processing

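No paired analysis was possible because each genotype had 1 library, and leaving out a replicate could not be run for the same reason. Every one of the 43 ratios stayed within its counting interval under TMM scaling and DESeq2 size factors. Each of those settings adds the same 0.055 to every log2 ratio. That is less than the distance from any ratio to its interval ends, so the outcome was fixed beforehand. All 43 also stayed within their intervals with the authors' TPM plus 0.1, a pseudocount of 3 and counts not rounded. Ratios near 0 changed sign for lhx5, otx1 and pax8 under TMM scaling and DESeq2 size factors, and for mafba, pax3a and tbr1b with the authors' TPM. The number of members at least 2-fold lower was 1 in place of 2 with TMM scaling and also with DESeq2 size factors, both without gbx2, and 3 with no minimum, which adds egr2b. With the authors' TPM 2 members were at least 2-fold higher, otx2a and egr2a in place of gsx2. At a minimum of 10 CPM 1 member was at least 2-fold higher and 2 were lower. At 1.5-fold 4 were higher (background 12.4%) and 5 lower (background 14.5%). Over all genes, 856 were at least 2-fold higher and 1034 lower in the main setting. Those counts were 982 and 921 with TMM scaling, and 982 and 924 with DESeq2 size factors. They were 684 and 1097 with the authors' TPM, 2082 and 2498 with no minimum, and 362 and 333 at 10 CPM. Among members with whole counts alone, a setting chosen after seeing the data, 1 was at least 2-fold higher and 0 lower. No matching count over all genes was made. The median over members ranged from -0.06 with the authors' TPM to 0.14 with whole counts alone. Depth limits egr2a, egr2b, pax5 and dlx2b, each with fewer than 100 reads in both libraries.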

Other observations

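Families of transcription factors as annotated in the deposited table gave a frame for the regional genes. Of 210 Homeobox genes that reached 1 CPM, 104 were higher and 106 lower, and the median log2 ratio was -0.01. Past 2-fold lay 14 on the higher side (background 4.72% of all genes) and 17 on the lower (background 5.7%). The 57 fork head genes had a median of -0.06, the 17 T-box genes -0.08 and the 681 zinc finger genes of the C2H2 class -0.08. The 68 bZIP genes had a median of 0.15. Of these, 13 were past 2-fold on the higher side (background 4.72%) and 3 on the lower (background 5.7%). Over the 1759 genes with any family named, 776 were higher and the median was -0.07.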
